A study of Mus musculus with 8 samples.

Results

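The 10 genes described here encode the inhibitors of axon growth that sit in central myelin and the neuronal and immune receptors that bind them. They are the ligands Rtn4 (NM_194054), Mag (NM_010758) and Omg (NM_019409), the ligand-binding receptors Rtn4r (NM_022982), Rtn4rl1 (NM_177708), Rtn4rl2 (NM_199223) and Pirb (NM_011095), and the signalling partners Lingo1 (NM_181074), Ngfr (NM_033217) and Tnfrsf19 (NM_013869). Members were taken by name: every mRNA probe whose RefSeq accession or gene name maps to one of these symbols. All 10 were found, with 25 probes, out of 20481 genes and 47074 mRNA probes on the array. All 25 probes passed the filter on dim signal, as did 18203 of the 20481 genes.

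Spinal cord RNA was measured in 8 female mice, aged 8 weeks per the labels, on 1-colour Agilent arrays: 4 mice with a contusion, which is a blunt bruise of the cord, and 4 controls. RNA came from cord segments T9 and T10, which enclosed the lesion, so every sample is a mixture of neurons, glia, vessels and invading blood cells. The titles place all 4 contusion samples at 3 days after injury, whereas the descriptions of contusion replicates 1, 2, 3 and 4 give 3, 4, 5 and 6 days. The controls are sham-operated mice in the series' design text but normal cord in their own descriptions; no strain, genotype or drug is named. The labels treat each sample as a separate mouse, with 1 array each.

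Myelin debris is known to stall regrowing axons after a cord injury. Nogo (from Rtn4), myelin-associated glycoprotein (Mag) and oligodendrocyte myelin glycoprotein (Omg) share a receptor, Rtn4r, which is anchored in the neuronal membrane by a lipid and has no part inside the cell. It signals through the transmembrane partners Lingo1 and either Ngfr (the p75 neurotrophin receptor) or Tnfrsf19 (TROY), which switch on the small GTPase RhoA and its kinases. Pirb, a receptor of the immune system, binds all of the ligands named above.

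Rtn4 makes several proteins. Nogo-A carries a long central stretch that is coded by a large exon of its own, and the shorter forms skip that exon, while all forms share the C-terminal reticulon domain. The array can tell these regions apart, and the probes that do so are printed because the Rtn4 result turns on them. Positions are mm9, as the array files give them, and probes run 5′ to 3′ along the transcript. The long-form probe, which the files assign to NM_194054 and NM_194051 only, lies in the coding part of the Nogo-A exon at chr11:29606873-29606932, on the plus strand. A pair of probes assigned also to the shorter transcripts NM_194053 and NM_194052 lie in the shared 3′ coding exons, at chr11:29641510-29641717 and chr11:29641530-29642295. Capitals mark the 40 bases that this pair has in common.
Rtn4 long form, A_52_P562401: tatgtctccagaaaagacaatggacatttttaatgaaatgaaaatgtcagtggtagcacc
Rtn4 shared end, A_52_P379337: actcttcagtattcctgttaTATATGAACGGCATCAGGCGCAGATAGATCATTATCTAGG
Rtn4 shared end, A_51_P160870: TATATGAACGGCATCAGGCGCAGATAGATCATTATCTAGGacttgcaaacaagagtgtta

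A circular RNA (circRNA) is an exon or group of exons whose end is spliced back to its start. The array names its circRNAs by position, and 4 of them lie inside Rtn4. Of these, 2 span the upstream interval that ends at base 29708770 and 2 start downstream at base 29733633, where the shared reticulon domain begins. One probe of each kind is printed to show what was hybridised: chr11:29705530-29708770 and chr11:29733633-29736498. The sources used here do not state the build of these positions; measured against the GRCm38 gene table, 98.5% of circRNA positions fell within a gene, and 40.9% did when all positions were moved by 1000000 bases. Capitals mark the run shared with the other circRNA probe of the same region, 49 and 34 bases long. A run of this length on the same side of the junction can also be part of linear Rtn4 mRNA, and how much linear RNA these probes catch was not tested.
Rtn4 circRNA, upstream: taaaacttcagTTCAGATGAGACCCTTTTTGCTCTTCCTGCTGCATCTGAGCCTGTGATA
Rtn4 circRNA, downstream: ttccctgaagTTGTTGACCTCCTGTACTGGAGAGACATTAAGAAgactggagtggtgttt

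Coding probes of Mag (chr7:31692038-31692097), Lingo1 (chr9:56467301-56467360) and Ngfr (chr11:95435537-95435596), all on the minus strand of mm9, are shown because each samples the protein-coding part of a gene whose other probes were tested separately. Those of Rtn4rl2 are shown because the pair overlaps: the first lies at chr2:84720564-84720623 on the minus strand, and the capitals mark the 20 bases it shares with the second, for which the files give no position.
Mag, A_52_P375021: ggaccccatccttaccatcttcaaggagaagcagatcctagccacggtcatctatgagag
Lingo1, A_51_P104802: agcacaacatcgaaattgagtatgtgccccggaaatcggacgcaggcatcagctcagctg
Ngfr, A_51_P384968: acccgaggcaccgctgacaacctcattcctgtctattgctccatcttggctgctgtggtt
Rtn4rl2, A_51_P359516: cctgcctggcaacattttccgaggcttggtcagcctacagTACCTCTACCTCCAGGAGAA
Rtn4rl2, CUST_56476_PI435794180: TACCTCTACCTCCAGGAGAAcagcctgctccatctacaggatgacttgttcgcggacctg

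Of the 10 genes, 3 were higher after contusion (Rtn4, Ngfr and Pirb), 3 were lower (Rtn4r, Omg and Lingo1) and 4 were not called (Mag, Rtn4rl1, Rtn4rl2 and Tnfrsf19). A call is an adjusted p under 0.05 in limma, adjusted with the Benjamini-Hochberg method over all 89145 features tested. That threshold called 51.1% of mRNAs, 25.8% higher and 25.4% lower, so 6 called of 10 is near the background of this injury and the count says little by itself. The groups did not overlap for 7 of the 10 genes, against 51.7% of mRNAs. The median difference was -0.13 over the 10 genes and -0.0015 over all mRNAs tested. Values below are levels, meaning the log2 intensity of a probe relative to the array's 75th percentile, and differences are contusion minus control on that log2 scale ± standard error, with n = 4 arrays per group. Levels of different probes are not compared, since probes differ in brightness. In bulk tissue, fewer cells of a type and less RNA per cell cannot be told apart.

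**Figure D1:**
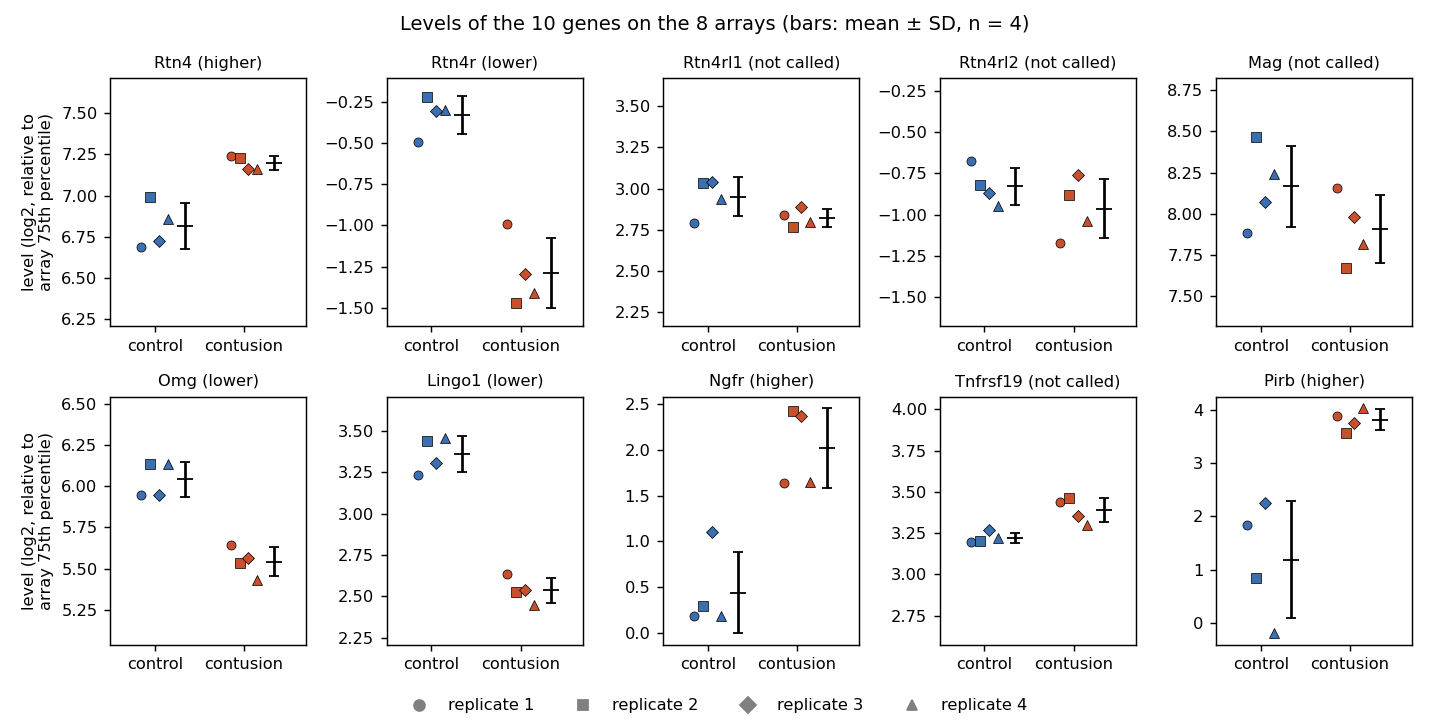
Level of each gene's brightest probe (log2, relative to the array's 75th percentile) on the 8 arrays, with 1 symbol per replicate and bars for the group mean ± SD. Each panel has its own range; Pirb and Ngfr lie higher in all 4 contusion arrays, Lingo1, Rtn4r and Omg lower, and Mag, Rtn4rl1 and Rtn4rl2 overlap.

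No spot was saturated, and the share of probes well above background was 72.9% to 75.4%. Slide 1 held control replicates 2, 3 and 4 with contusion replicate 1, and slide 2 held control replicate 1 with contusion replicates 2, 3 and 4. The Hox genes of thoracic cord were well above background on all 8 arrays for 7 of 7 measured. Oligodendrocyte and neuron markers were measured for 16 of 16 and 17 of 17 genes. Skeletal muscle markers averaged 3.69 and 2.06 in contusion replicates 1 and 2 against -0.90 to 0.87 on the other 6 arrays. Blood and meningeal markers also varied among controls, as given beside Pirb and Ngfr.

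Among the ligands, Rtn4 rose slightly, Omg fell and Mag was not called. Rtn4 stood at 6.69, 6.99, 6.73 and 6.86 in the 4 controls and at 7.24, 7.23, 7.16 and 7.16 in the 4 contusion samples. Every contusion array lay above every control array. The difference was 0.38 ± 0.08, or 1.30-fold (adjusted p = 0.00639, limma). Without contusion replicates 1 and 2, the arrays with muscle signal, the same gene gave 0.34 and was no longer called (adjusted p = 0.0619, limma).

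The 4 Rtn4 probes gave changes of different size. The long-form probe read 2.11, 1.96, 1.92 and 2.01 in controls and 2.23, 2.07, 2.06 and 2.09 after contusion. These groups overlapped, since control replicate 1 lay above contusion replicates 2, 3 and 4. The difference was 0.11 ± 0.07 and was not called (adjusted p = 0.180 over all mRNA probes, limma), with a 95% interval of -0.04 to 0.27. The shared-end probe A_52_P379337 read 4.43, 4.53, 4.54 and 4.64 in controls and 5.18, 5.06, 4.99 and 4.96 after contusion, with no overlap. It rose by 0.51 ± 0.07 (adjusted p = 0.00041), and the overlapping probe A_51_P160870 rose by 0.51 ± 0.08 (adjusted p = 0.000962). The remaining Rtn4 probe, CUST_56759_PI435794180, is the brightest and gave the gene's own value of 0.38.

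Because probes can be compared within an array, the change at the shared end was set against the change in the Nogo-A exon, a comparison chosen after their values were seen. The rise was larger at the shared end by 0.40 ± 0.08 for A_52_P379337 (adjusted p = 0.0101, limma over all 33409 pairs of probes of one gene) and by 0.40 ± 0.09 for A_51_P160870 (adjusted p = 0.0204). Of all such pairs 15.6% were called, and of the 21 pairs within the 10 genes 3 were called, which is near that background. The long-form probe is dimmer than the shared-end pair, and the part of its dimness in the smaller change was not tested. The first of these held without each array in turn, with adjusted p up to 0.0325. The second did not: the adjusted p was 0.0504 to 0.0596 without contusion replicate 2, 3 or 4, and 0.0544 without control replicate 3. Against the brightest probe the long-form probe differed by -0.27 ± 0.10, which was not called (adjusted p = 0.102). With slide as a block the first 2 differences were 0.47 (adjusted p = 0.00707) and 0.47 (adjusted p = 0.02).

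Of the 4 Rtn4 circRNAs, both downstream ones rose and the upstream ones differed less. The downstream circRNA chr11:29733633-29742043 read 0.79, 0.63, 0.61 and 0.85 in controls and 1.42, 1.31, 1.27 and 1.29 after contusion. No array overlapped, and the difference was 0.60 ± 0.08 (adjusted p = 0.000593, limma). Its neighbour chr11:29733633-29736498 rose by 0.43 ± 0.12 (adjusted p = 0.019). The upstream circRNA chr11:29705530-29708770 read 2.83, 2.76, 2.61 and 2.73 in controls and 2.97, 2.89, 2.91 and 2.96 after contusion, a difference of 0.20 ± 0.07 (adjusted p = 0.045). That call was lost with slide as a block (adjusted p = 0.117) and whenever an array other than control replicate 1 was left out (adjusted p up to 0.103). The near-identical chr11:29705535-29708770 differed by 0.14 ± 0.07 and was not called (adjusted p = 0.16). All circRNAs of the array were called in 41.9% of cases, 16.2% higher and 25.7% lower, and their groups did not overlap in 43.7%; those of all 4 Rtn4 circRNAs did not.

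Within arrays, the mean of the downstream pair minus the mean of the upstream pair was -1.10, -0.99, -0.86 and -0.89 in controls and -0.46, -0.63, -0.68 and -0.68 after contusion. The group means differed by 0.35 on the log2 scale, by 0.45 within slide 1 and by 0.44 within slide 2. The pairs were formed after their changes were seen and the probes of each pair share bases, so this is a description with no test. These circRNA values come from the same 8 arrays as the mRNA values and are no separate experiment.

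**Figure D2:**
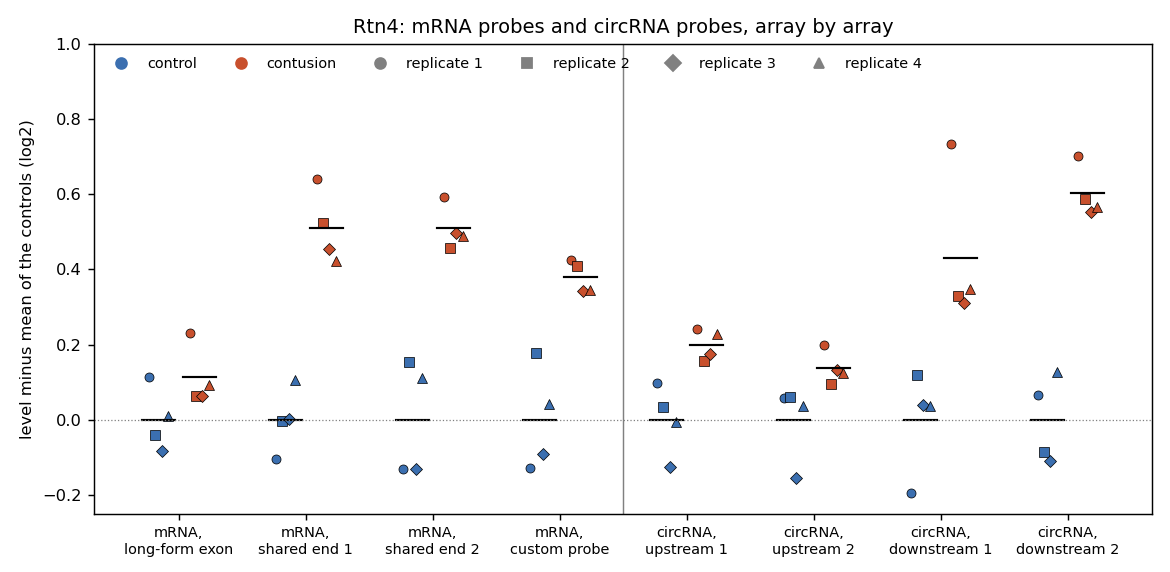
Change of each Rtn4 probe on each array, as its level minus the mean of the 4 controls (log2), for 4 mRNA probes and 4 circRNA probes, with group means as lines. The contusion mean is 0.11 for the long-form probe and 0.51 for each shared-end probe, and 0.20 and 0.14 for the upstream circRNAs against 0.43 and 0.60 for the downstream ones.

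Omg, a lipid-anchored protein made by oligodendrocytes and neurons, stood at 5.95, 6.13, 5.95 and 6.14 in controls and 5.64, 5.53, 5.57 and 5.43 after contusion. The groups were apart by more than the range of either. It fell by 0.50 ± 0.08 (adjusted p = 0.00156, limma), and its second probe fell by 0.64 ± 0.09.

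Mag, a sialic acid-binding protein of the innermost myelin layer, stood at 7.89, 8.47, 8.07 and 8.24 in controls and at 8.16, 7.68, 7.98 and 7.82 after contusion. The groups overlapped, with control replicates 1 and 3 among the contusion values. None of its 3 probes was called; their differences were -0.26 ± 0.14, -0.20 ± 0.09 and -0.08 ± 0.12, the last from the coding probe printed above. The 95% interval for the brightest probe ran from -0.60 to 0.08. Values corrected with normexp and quantile normalised gave -0.24 and a call (adjusted p = 0.0486, limma), whereas with slide as a block the difference was -0.08.

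Markers of myelinating oligodendrocytes, the cells that make Mag, behaved unevenly. Of 16 markers, 7 were lower, 3 were higher and the median difference was -0.24. The gap-junction gene Gjc3 fell by 0.73 ± 0.10 and the galactolipid enzyme gene Ugt8a fell by 0.53 ± 0.15. The protease gene Klk6 rose by 0.49 ± 0.10 and the iron carrier gene Trf rose by 0.30 ± 0.09. With slide as a block 2 of the 16 were lower, and the calls of Ugt8a and Trf were lost (adjusted p = 0.0613 and 0.0861, limma). The count of lower genes was 3 without control replicate 2 and 4 without control replicate 4, contusion replicate 3 or contusion replicate 4. The count of higher genes was 1 without any single array of control replicates 3 and 4 or contusion replicates 2, 3 and 4. The part of oligodendrocyte number in the Mag and Omg values was not tested.

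Among the ligand-binding receptors, Rtn4r was lower, Pirb was much higher, and the other Nogo receptor family members changed little. Rtn4r, the receptor common to Nogo, Mag and Omg, stood at -0.50, -0.22, -0.31 and -0.30 in controls and at -0.99, -1.47, -1.29 and -1.41 after contusion. Contusion replicate 1 was the highest of its group and still lay below every control. It fell by 0.96 ± 0.12 on the log2 scale, or 1.94-fold (adjusted p = 0.000474, limma), and its second probe by 0.80 ± 0.11. With normexp and quantile values the difference was -0.50, still called (adjusted p = 0.000406). The difference was -0.71 within slide 1 and -0.90 within slide 2.

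Rtn4rl1 (Nogo receptor 3, a receptor for chondroitin sulphate chains) stood at 2.79, 3.04, 3.04 and 2.94 in controls and 2.84, 2.77, 2.89 and 2.79 after contusion. The groups overlapped and the difference was -0.13 ± 0.08 (adjusted p = 0.217, limma; 95% interval -0.30 to 0.04). Its sign turned within slide 2, where it was 0.03. The second probe, A_52_P94401, fell by 0.28 ± 0.06 (adjusted p = 0.00615 over all mRNA probes), and no difference between the changes of the 2 probes was called by the pair test (adjusted p = 0.246). The circRNA chr11:75264757-75266741 inside Rtn4rl1 fell by 0.32 ± 0.08 (adjusted p = 0.0129), but its probe shares a run of 31 bases with A_52_P94401 and is no separate measurement.

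Rtn4rl2 (Nogo receptor 2, which binds Mag) stood at -0.68, -0.82, -0.87 and -0.95 in controls and at -1.17, -0.88, -0.76 and -1.04 after contusion. The values were interleaved, with a difference of -0.13 ± 0.10 (adjusted p = 0.350, limma; 95% interval -0.37 to 0.10). Its second probe, which overlaps the first by the 20 capital bases above, gave -0.22 ± 0.08 and a call (adjusted p = 0.0448 over all mRNA probes) that was lost with slide as a block (adjusted p = 0.0912) and without any single array of control replicates 2, 3 and 4 or contusion replicates 1 and 3. With slide as a block the first probe gave -0.25, called over all mRNA probes (adjusted p = 0.0352) but not over all features (adjusted p = 0.064). No difference between the changes of the pair was called (adjusted p = 0.745).

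Pirb, an inhibitory receptor of myeloid and B cells that also binds Nogo, Mag and Omg, showed the largest difference of the 10 genes. It stood at 1.84, 0.84, 2.26 and -0.19 in controls and at 3.89, 3.57, 3.76 and 4.03 after contusion. The contusion arrays lay close together, whereas the controls were widely spread, with replicate 4 lowest and replicate 3 highest. The rise was 2.62 ± 0.48, or 6.15-fold (adjusted p = 0.00316, limma). Leaving out control replicate 4 lowered it to 2.16 and leaving out control replicate 3 raised it to 2.98; without control replicates 1 and 3 together it was 3.48. Its 3 probes rose by 2.62, 2.62 and 2.64.

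The Pirb probes overlap, so their likeness is partly built in. A_51_P445726 and CUST_67963_PI435794180 share 49 positions and differ at 1 of them, a T13G difference counted from the 5′ end of the stretches printed here, with that base in capitals. No probe of another gene on the array shared a run of 20 or more bases with any Pirb probe. That check covers probes only, and whether the Pirb probes also catch RNA of related genes was not tested.
Pirb, A_51_P445726, stretch: catcagagtttgTaaataaagctag
Pirb, CUST_67963_PI435794180, stretch: catcagagtttgGaaataaagctag

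Relatives and signalling partners of Pirb rose with it: 7 of 8 measured genes of that list were higher and none was lower, with a median difference of 2.20. The related receptor genes Lilrb4a and Lilr4b rose by 4.07 ± 0.54 and 4.68 ± 0.60. Pira2 and Pira6, activating relatives, rose by 3.40 ± 0.59 and 2.35 ± 0.60, but were well above background on only 3 and 1 of the 4 control arrays; the Pira6 call was lost with slide as a block (adjusted p = 0.0597, limma). Ptpn6, the phosphatase SHP-1 that docks on the Pirb tail in blood cells, rose by 2.05 ± 0.25, and the paired receptor genes Pilra and Pilrb1 rose by 1.89 ± 0.40 and 1.26 ± 0.18. Ptpn11, the broadly expressed phosphatase SHP-2, differed by 0.02 ± 0.09 and was not called.

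Markers of macrophages and microglia moved the same way: 12 of 13 were higher and none lower, with a median of 1.80, led by Msr1 (5.15 ± 0.57) and Cd68 (3.48 ± 0.40). The mean level of that list was 3.25, 2.85, 3.26 and 1.89 in the 4 controls and 4.84, 4.62, 4.78 and 4.93 after contusion. Control replicates 3 and 1 were thus highest and control replicate 4 lowest for both Pirb and the list. Neutrophil markers were higher for 3 of 10 genes (1 with slide as a block, and 1 without control replicate 2, contusion replicate 3 or contusion replicate 4), with list means of 1.73, -0.43, 2.05 and 0.24 in controls and 0.50, 0.98, 2.30 and 2.09 after contusion. The part of phagocyte number in the Pirb values was not tested.

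**Figure D3:**
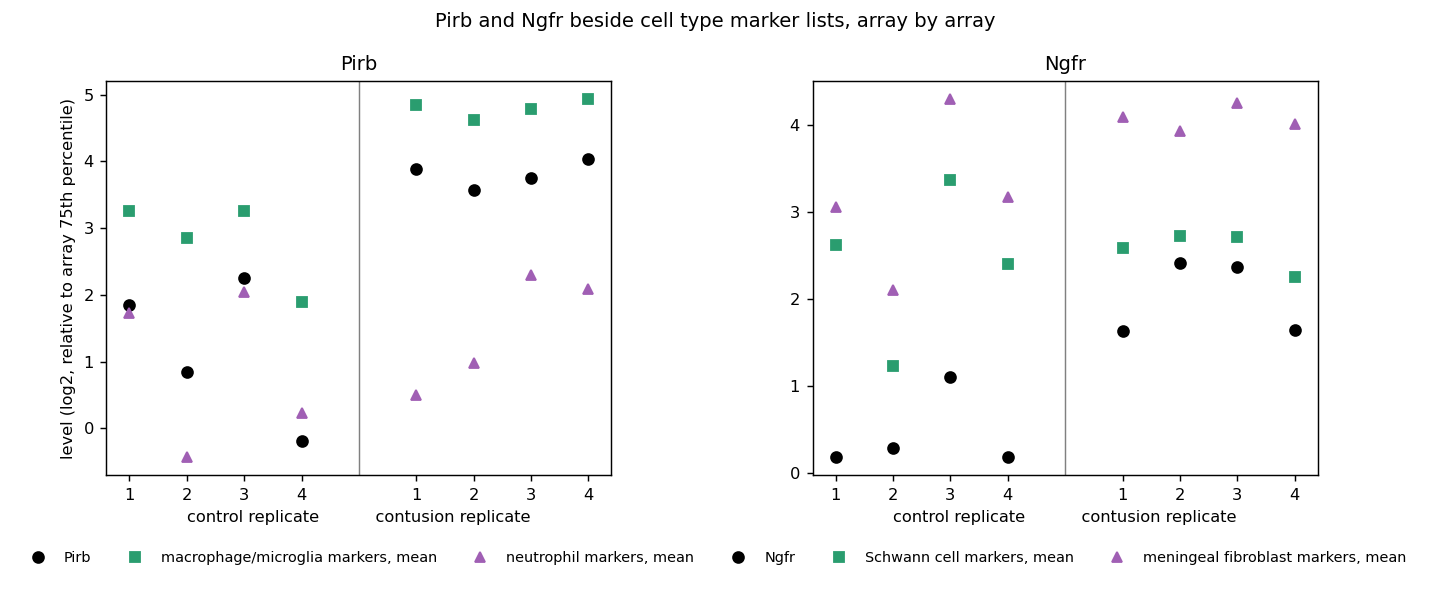
Levels of Pirb and Ngfr (log2, relative to the array's 75th percentile) on each control and contusion array beside the mean level of marker lists. Pirb and the macrophage and microglia list share their order among controls. Control replicate 3 is the highest control for Ngfr and for the Schwann cell and fibroblast lists. Control replicate 2 is the lowest control for both of those lists but not for Ngfr.

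The region upstream of Pirb is printed as the promoter of the member with the largest rise. It is the 250 bases before the RefSeq start in GRCm38.p6, chr7:3720383-3720632, read on the minus strand; of the 10 genes, 8 have an entry in the promoter table. Capitals mark GAGGAA on either strand (TTCCTC on the other), the core to which the myeloid factor PU.1 binds. There are 3 matches here. Of 32851 promoter windows of this length, 23.3% held at least 1 match and 0.429% held 3 or more. A match describes letters and is not a measured binding site. The gene was picked by its rise, so the share of windows is no test, and matches of the other members are not given.
Pirb promoter: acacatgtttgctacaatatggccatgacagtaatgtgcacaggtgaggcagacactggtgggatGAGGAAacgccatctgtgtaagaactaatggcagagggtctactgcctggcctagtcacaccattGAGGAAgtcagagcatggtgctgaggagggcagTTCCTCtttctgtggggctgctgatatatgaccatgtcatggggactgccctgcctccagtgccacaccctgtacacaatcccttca

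Of the signalling partners, Lingo1 fell, Ngfr rose and Tnfrsf19 was just outside the threshold. Lingo1, a neuronal membrane protein with leucine-rich repeats, stood at 3.24, 3.44, 3.31 and 3.46 in controls and at 2.63, 2.53, 2.54 and 2.45 after contusion. The gap between the groups was wider than the spread within either. It fell by 0.82 ± 0.08 on the log2 scale, or 1.77-fold (adjusted p = 0.000188, limma). The coding probe printed above read 1.00, 0.96, 0.91 and 0.93 in controls and fell by 1.02 ± 0.11. Among 5 circRNAs inside Lingo1, chr9:56685120-56724345 on the gene's strand fell by 0.86 ± 0.08 (adjusted p = 0.000169). It read -1.34, -1.42, -1.52 and -1.43 in controls and -2.32, -2.37, -2.33 and -2.13 after contusion. Another, chr9:56620333-56620433 on the opposite strand, fell by 0.99 ± 0.26 but was well above background on 1 of 4 contusion arrays and was not called with slide as a block (adjusted p = 0.0673). The other 3 were not called, though chr9:56653600-56685281 was with slide as a block (-0.34, adjusted p = 0.0164).

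Ngfr, a receptor of neurotrophins that Schwann cells, fibroblasts and some neurons also make, stood at 0.19, 0.29, 1.10 and 0.18 in controls and at 1.63, 2.42, 2.37 and 1.64 after contusion. Control replicate 3 was well above the other controls and still below every contusion array. The rise was 1.58 ± 0.27, or 2.99-fold (adjusted p = 0.00236, limma), and 1.80 without control replicate 3. Inside slide 1 it was 1.11 and within slide 2 it was 1.96.

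The Ngfr probes gave changes of different size, and the comparison of these probes was chosen after their values were seen. The 3′ probe A_52_P236448 rose by 1.37 ± 0.26 and the coding probe A_51_P384968 by 0.76 ± 0.18 (adjusted p = 0.00611 over all mRNA probes). Within arrays the coding probe rose less than the brightest probe, with a pair difference of -0.81 ± 0.18 (adjusted p = 0.0165, limma). Without contusion replicate 3 the adjusted p was 0.0506. Against the 3′ probe the coding probe differed by -0.61 ± 0.19, which was not called (adjusted p = 0.0681, limma). That adjusted p was up to 0.165 with an array left out. With slide as a block the same difference was -0.79 and was called (adjusted p = 0.0334). The coding probe is the dimmest of the 3, at -2.76 ± 0.19 (SD, n = 4) in controls, and the part of its dimness in the smaller change was not tested.

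Schwann cell and fibroblast markers are given beside Ngfr because those cells make it. Schwann cell list means were 2.61, 1.23, 3.37 and 2.40 in controls and 2.58, 2.72, 2.71 and 2.25 after contusion, with 1 of 10 genes higher and 1 lower. The higher call, of the cadherin gene Cdh19, was lost with slide as a block (adjusted p = 0.0749, limma) and without control replicate 2 or 3 or contusion replicate 1, 2 or 3, and 2 genes were lower without control replicate 1 or contusion replicate 1. Fibroblast list means were 3.05, 2.10, 4.30 and 3.17 in controls and 4.09, 3.93, 4.25 and 4.01 after contusion, with 3 of 9 higher; without control replicate 3 this was 7 of 9. The higher call of the fibroblast marker Lum was lost without control replicate 1 or contusion replicate 1 or 3 (adjusted p up to 0.0605, limma). Both lists were highest among controls in replicate 3, as was Ngfr. Control replicate 2 was the lowest control for both lists, whereas for Ngfr it lay above control replicates 1 and 4. In contusion replicate 2 Ngfr and the Schwann cell list were highest of their group and the fibroblast list was lowest. The part of these cells in the Ngfr values was not tested.

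Tnfrsf19, which can replace Ngfr in the receptor complex, stood at 3.20, 3.20, 3.27 and 3.22 in controls and 3.44, 3.46, 3.36 and 3.30 after contusion. The groups did not overlap, by a gap smaller than the contusion range. The difference was 0.17 ± 0.06 (adjusted p = 0.0612, limma; 95% interval 0.03 to 0.31). Its second probe, A_51_P399305, gave 0.13 ± 0.07 with overlapping groups and was not called (adjusted p = 0.164 over all mRNA probes). The gene's own value was called when only mRNAs were adjusted together (adjusted p = 0.0328, limma) and in the authors' own normalised values (adjusted p = 0.0489). In the fit that blocks on slide the gene's own value was not called (adjusted p = 0.0715).

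**Figure D4:**
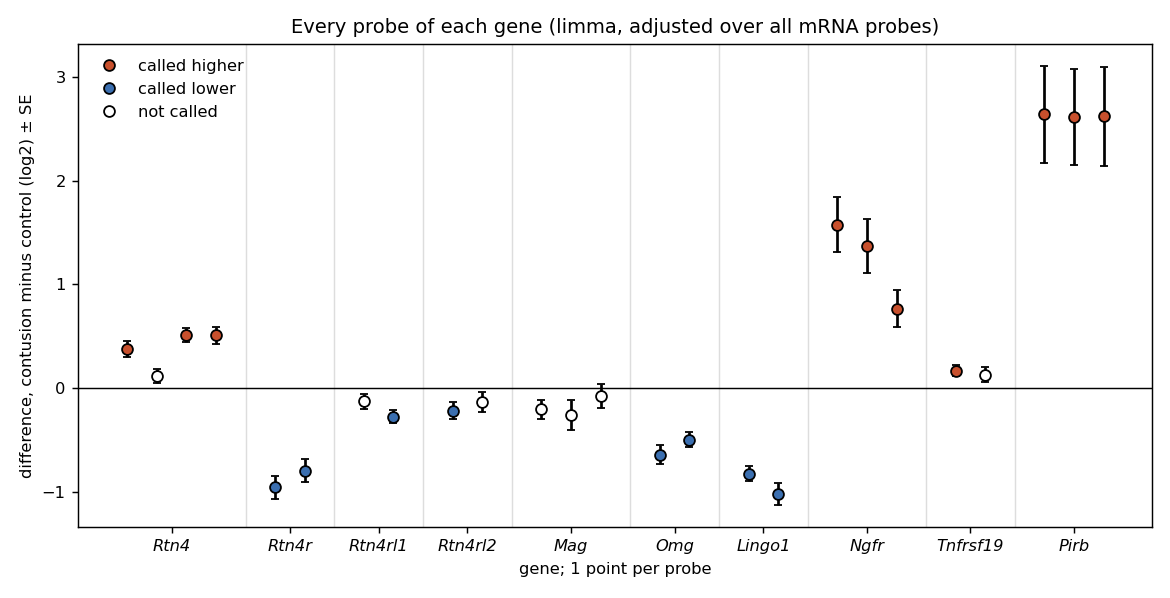
Difference of each of the 25 probes, contusion minus control (log2) ± standard error, grouped by gene and filled where called over all mRNA probes. Probes of Pirb, Omg, Rtn4r and Lingo1 lie close together, while those of Rtn4 run from 0.11 to 0.51 and those of Ngfr from 0.76 to 1.58.

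Tested one by one, 18 of the 25 probes were called, 10 higher and 8 lower, against 57.1% of all mRNA probes (28.0% higher and 29.1% lower), and 18 had groups that did not overlap, against 53.3%. No gene had probes called in opposite directions. Every probe was called for 5 genes (Rtn4r, Omg, Lingo1, Ngfr and Pirb), and Mag alone had no probe called. Of the 13 circRNAs inside the 10 genes, which lie in 5 of them, 3 were called higher and 3 lower. Among all circRNAs 41.9% were called, 16.2% higher and 25.7% lower. On the strand opposite to their gene lie 2 of the 13, and of these chr9:56620333-56620433 in Lingo1 was among the lower calls.

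With slide as a block all 6 called genes remained called. Their differences were 0.44 for Rtn4, -0.80 for Rtn4r, -0.43 for Omg, -0.75 for Lingo1, 1.54 for Ngfr and 2.43 for Pirb. Slide 1 has a single contusion array and slide 2 a single control array, so a value taken inside either slide leans on that array. For Pirb it was 2.92 within slide 1 and 1.94 within slide 2, for Lingo1 -0.77 and -0.73, and for Omg -0.43 and -0.44. The descriptions give day 3 for the contusion array on slide 1 and days 4, 5 and 6 for those on slide 2. If those days hold, slide and day after injury cannot be told apart among the contusion samples.

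The relatives of Rtn4 and Lingo1 give the members a family setting. All 3 other reticulon genes were lower, Rtn1 by 0.68 ± 0.09, Rtn2 by 0.72 ± 0.10 and Rtn3 by 0.61 ± 0.12 (differences of -0.68, -0.72 and -0.61), whereas Rtn4 was higher. All 3 relatives of Lingo1 fell with it, with differences of -0.65 ± 0.11 for Lingo2, -0.82 ± 0.08 for Lingo3 and -1.22 ± 0.10 for Lingo4. Neuron markers fell for 16 of 17 genes, with a median of -0.72, led by the splicing factor gene Rbfox3 (-0.97 ± 0.09) and the inhibitory transmitter transporter gene Slc32a1 (-0.92 ± 0.14). Gap43, a growth cone protein, was the exception and rose by 0.61 ± 0.10. The lower call of the neuron marker Stmn2 was lost with slide as a block (adjusted p = 0.115, limma). That call was also lost without control replicate 1, 2 or 4 or contusion replicate 2, 3 or 4 (adjusted p up to 0.0927). The part of neuron loss in the values of Rtn4r, Lingo1 and their relatives was not tested.

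The binding list holds other ligands, receptors and antagonists tied to the ligands or receptors described here, and not only genes that bind those receptors. Its genes moved in both directions: of 14 measured, 4 were higher and 5 lower, with a median of -0.03. S1pr2, a sphingosine phosphate receptor that also binds Nogo-A, rose by 1.38 ± 0.09, from 1.60 ± 0.14 to 2.99 ± 0.09 (SD, n = 4; adjusted p = 8.22e-05, limma). The Mag-binding endocytic receptor gene Lrp1 rose by 0.53 ± 0.06, the repulsive guidance receptor gene Neo1 by 0.32 ± 0.07 and the proneurotrophin receptor gene Sorcs2 by 0.55 ± 0.08. Crtac1, which encodes a natural antagonist of Rtn4r, fell by 1.07 ± 0.16, and Lgi1, a secreted Rtn4r ligand gene, by 0.82 ± 0.11. Adgrb1, an adhesion receptor that binds Rtn4r, fell by 0.51 ± 0.06, the p75 co-receptor gene Sort1 by 0.40 ± 0.10 and Tnfsf13b (BAFF) by 0.34 ± 0.09. The Tnfsf13b call was lost without contusion replicate 4 (adjusted p = 0.0508) and in the fit that blocks on slide (adjusted p = 0.0694). Ptprs, a receptor of inhibitory proteoglycans, differed by -0.30 ± 0.11 and Ptprf by 0.11 ± 0.08, neither of which was called.

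Enzymes that build the gangliosides bound by Mag on axons were lower for 5 of 7 genes and higher for none, with a median of -0.28; with slide as a block 4 were lower, the St3gal3 call being lost (adjusted p = 0.0552, limma). St8sia1, the GD3 synthase gene, fell by 0.86 ± 0.08 and St3gal5, which makes the precursor GM3, by 0.54 ± 0.10.

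Genes of the RhoA route downstream of the receptor complex split, with 6 of 14 higher and 4 lower (median 0.18). RhoA itself (Rhoa) rose by 0.29 ± 0.08, its kinase genes Rock1 and Rock2 by 0.29 ± 0.06 and 0.27 ± 0.07, and the actin-severing cofilin gene Cfl1 by 0.29 ± 0.08. Arhgdia, the inhibitor from which the p75 receptor releases RhoA, rose by 0.54 ± 0.11 and Egfr by 0.33 ± 0.11. Limk1 and Limk2, kinases of cofilin, fell by 0.74 ± 0.07 and 0.30 ± 0.07. Kalrn, a neuronal exchange factor, fell by 0.72 ± 0.08 and Dpysl2 (CRMP2) by 0.34 ± 0.10. With slide as a block the calls of Rock2, Cfl1, Egfr and Dpysl2 were lost, with adjusted p of 0.0558, 0.0623, 0.0636 and 0.106. The Egfr call was also lost without any single array except control replicate 3 (adjusted p up to 0.122), that of Cfl1 without control replicate 4 (adjusted p = 0.0515), and that of Dpysl2 without control replicate 2 or 4 or contusion replicate 2, 3 or 4 (adjusted p up to 0.0809).

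Proteases that cut the receptors or ligands were higher for 4 of 9 genes and lower for 1 (median 0.22). The membrane metalloprotease gene Mmp14 rose by 1.24 ± 0.17 and the p75 sheddase gene Adam17 by 0.85 ± 0.08, while Bace1 fell by 0.38 ± 0.09. Cytoplasmic and neurotrophin-receptor partners of p75 were higher for 3 of 8 genes and lower for 4 (median -0.05). Ripk2 rose by 0.62 ± 0.09 and Ntrk2 by 0.43 ± 0.07, while Bex3 fell by 0.58 ± 0.13.

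**Figure D5:**
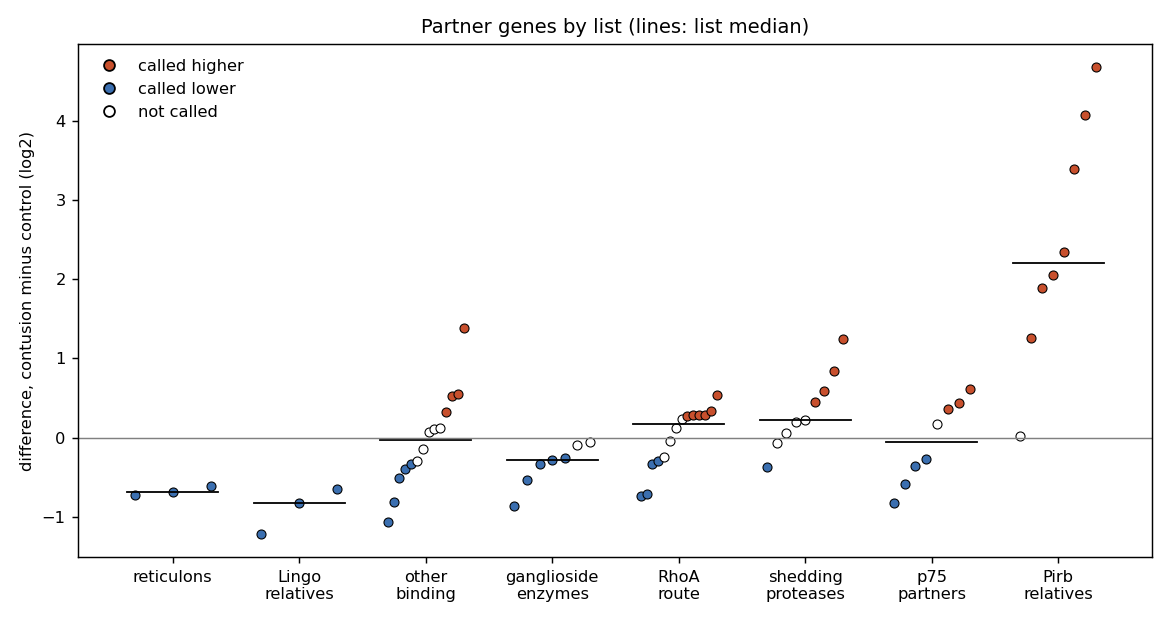
Difference of each measured gene in 8 lists of relatives and partners, contusion minus control (log2), with the list median as a line and fill for called genes. The median is 2.20 for the Pirb list, -0.68 for the reticulons and -0.82 for the Lingo relatives, and between -0.28 and 0.22 for the other lists.

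For each called gene, the 2 mRNAs with the most similar course over the 8 arrays were found by the root mean square difference of their levels, each centred on its own mean. The likeness was closest for Omg, where Tafa5 and Exoc6b differed by 0.02 and 0.02, and for Lingo1, where Smad9 and Grip1 differed by 0.02 and 0.03. Rtn4 had Mtch2 (0.04) and Zbtb3 (0.05), and Rtn4r had Rimbp3 (0.04) and Lor (0.06). Pirb had Mcoln2 (0.17) and Csf2rb (0.18), and Ngfr had Igfbpl1 and Anxa2 at 0.26 each. With 8 arrays in 2 groups, such likeness includes the difference between the groups and was not tested.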

How the data were processed

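Total RNA from 8 cords was labelled with Cy3 and hybridised to 1-colour arrays, per the labels' protocols. The deposited intensity values were background-subtracted within each array by Agilent Feature Extraction (12.0.3.1 per the file headers, 10.7 per the submitters' processing notes, which also name limma) and not scaled between arrays. Flags for signal above background, outliers and saturation were used as deposited. The authors' series table holds log2 values: against the deposited intensity its Spearman correlation was 1, so it is uncentred and keeps direction; it served as an alternative only.

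Of 172336 spots counted in the headers, 155279 were read. A level is a log2 intensity less that of the array's 75th percentile, taken over 150305 non-control probes. Outlier spots, 6 to 53 on an array, and control spots were dropped. A probe was kept if 4 or more of the 8 arrays flagged it well above background, and the brightest kept probe stood for a gene. Of 22694 mRNA accessions, 99.0% matched the GRCm38.p6 RefSeq table used for symbols and sequences. The group term was tested two-sided in limma 3.58.1 under R 4.3.3 (lmFit, eBayes), and p-values of all features were adjusted together (Benjamini-Hochberg); errors are standard errors unless marked SD. The fit was tested on simulated data.

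Named genes are all 10 members and, in the lists whose genes are named, the 2 largest called increases and decreases (all called genes of the binding, Pirb and RhoA route lists), with the 2 nearest patterns of each called member; other names were chosen after their values were seen, and 1 gene that the rule names is not reported here. The members and lists were chosen with earlier results of these data known. Replicate numbers did not pair the samples: same-numbered deviations correlated at -0.24, 0.03, 0.06 and -0.17. Alternatives were median scaling, normexp with an offset of 50, the authors' table, other filters, probe means, single probes, mRNAs alone, trended eBayes, slide, replicate number and single arrays left out.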

Additional observations from a re-analysis of the deposited data

Results flagged for a closer look

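Each of the 20 sets of 4 arrays (10 genes in controls and in contusion samples) was checked for an array far from the others of its group, by Dixon's ratio of gap to range at its 95% critical value; chance marks about 1 set in 20. Only Ngfr in control replicate 3 passed, at a level of 1.10, with a ratio of 0.884. Its marker levels are given beside the Ngfr result, and their part in this value was not tested.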

How the results depend on the processing

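Of the 6 called genes, Rtn4r, Omg, Lingo1, Ngfr and Pirb kept their direction and an adjusted p under 0.05 in all 21 other fits, among them each array left out in turn; Rtn4 did so in 20, the exception being the fit without contusion replicates 1 and 2 (adjusted p = 0.0619), which was chosen after seeing the data. Differences over those fits ran from 0.27 to 0.44 for Rtn4, -1.06 to -0.50 for Rtn4r, -0.59 to -0.43 for Omg, -0.92 to -0.75 for Lingo1, 1.24 to 1.80 for Ngfr and 2.16 to 3.48 for Pirb. Tnfrsf19 was called in 4 of 21 fits (adjusted p from 0.0305 to 0.331), Rtn4rl1 only with probes averaged (adjusted p = 0.037), Mag only with normexp and quantile values (adjusted p = 0.0486), and Rtn4rl2 in none; the cause was not tested. The mRNAs called numbered 7116 to 10499 over the settings, the number of member probes called 16 to 19, and the circRNAs of these genes called 5 with slide as a block and 5 with no filter. The replicate numbers share only a number; with replicate number as a block 7463 mRNAs were called and the same numbers of genes, 3 higher and 3 lower, as without it. No scaling moved the median mRNA difference beyond -0.02 to 0.02. Marker list counts that moved most were oligodendrocyte genes called lower, 11 with normexp and 2 with slide as a block.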

Other observations

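Lists of cell types not described with the genes above also shifted. Oligodendrocyte precursor markers were higher for 6 of 10 genes and lower for 1 (0 with slide as a block, and 0 without any single array except control replicate 1 or contusion replicate 1), with a median of 0.35, and endothelial markers were higher for 7 of 8, with a median of 1.06. The higher call of the precursor marker Ptprz1 was lost with slide as a block (adjusted p = 0.0981, limma) and without any single array except control replicate 2. Astrocyte markers were lower for 6 of 10 and higher for 3, with a median of -0.42. The higher call of Gfap was lost with slide as a block (adjusted p = 0.118, limma) and without any single array except control replicate 2 or 4. Those of Aldh1l1 and Aqp4 held with slide as a block (adjusted p = 0.00129 and 0.0142, limma) and without each array in turn. Hox genes of thoracic cord were lower for 5 of 7, and forebrain genes, which cord should lack, had mean levels of -1.52 to -1.12 on the 8 arrays. The Hoxb7 call was lost with slide as a block (adjusted p = 0.1485, limma) and without control replicate 2, 3 or 4 or contusion replicate 1, 2 or 4.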
